A study of Mus musculus with 2 samples.

Results

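Heat shock proteins and their DnaJ co-chaperones were followed in the fetal mouse palate on arrays labelled as wild type and as null for the muscle-determining genes Myf5 and MyoD. Members were the single-gene probe sets whose annotated symbol starts with Dnaj, Hspa, Hspb, Hspd, Hspe, Hsph or Hsp90, or is Cryab, Unc45a, Unc45b or Smyd1. This gave 188 probe sets of 76 genes among 45101 probe sets on each array, 34945 of which name 1 gene. Total RNA from palates at E18.5 (embryonic day) of the BALB/c background was hybridised to Affymetrix arrays, 1 array for wild-type palate and 1 for palate labelled Myf5-/-:MyoD-/-. Both samples share the tissue, the age and the strain name, and the labels do not say whether each was 1 fetus or a pool. Nor do they state what was deleted from each targeted gene. The series asks what skeletal muscle contributes to palate development. With 1 array per genotype there were no replicates, so no difference below has a p-value and each compares these arrays only.

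Molecular chaperones bind unfolded or partly folded proteins and keep them from aggregating. Hsp70 proteins work in cycles that DnaJ proteins start by delivering a client and stimulating the ATPase of Hsp70, Hsp90 proteins finish the folding of many kinases and receptors, chaperonins enclose a client in a chamber, and small heat shock proteins hold unfolded clients without using ATP. Striated muscle adds its own set: Unc45b folds the myosin head together with Hsp90, the methyltransferase Smyd1 is needed for thick filament assembly, and Cryab, Hspb2, Hspb3, Hspb6 and Hspb7 are small heat shock proteins abundant in heart or skeletal muscle. These 7 genes are called muscle chaperones here, and the other 69 member genes general chaperones.

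Promoter windows from RefSeq (build GRCm38.p6, a C57BL/6J genome, 250 bases before to 50 after an annotated start) were found for 62 of the 76 genes, 5 of them muscle chaperones. The window of Hspe1 is shown because it overlaps a window of its neighbour Hspd1, the gene with the lowest ratio of all members, that of Hsph1 because it holds a full heat shock element as well, and those of Unc45b and Hspb3 because these muscle chaperones had the lowest ratios of their group. Capitals mark matches to the heat shock element, whose short form is GAANNTTC or TTCNNGAA and whose full form adds NNGAA or NNTTC to it so that GAA and TTC alternate, and to the E-box CAGCTG, a sequence that myogenic factors can bind. Matches are letters in a window and not evidence of binding.
Hspe1, chr1:55087898-55088197, + strand: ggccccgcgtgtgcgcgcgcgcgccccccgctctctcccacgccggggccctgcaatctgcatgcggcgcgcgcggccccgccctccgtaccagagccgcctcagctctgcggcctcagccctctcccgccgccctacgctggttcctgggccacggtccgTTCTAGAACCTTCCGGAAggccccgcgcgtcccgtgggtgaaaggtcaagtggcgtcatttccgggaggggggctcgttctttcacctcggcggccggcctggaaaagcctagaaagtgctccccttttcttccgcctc
Hsph1, chr5:149636287-149636586, - strand: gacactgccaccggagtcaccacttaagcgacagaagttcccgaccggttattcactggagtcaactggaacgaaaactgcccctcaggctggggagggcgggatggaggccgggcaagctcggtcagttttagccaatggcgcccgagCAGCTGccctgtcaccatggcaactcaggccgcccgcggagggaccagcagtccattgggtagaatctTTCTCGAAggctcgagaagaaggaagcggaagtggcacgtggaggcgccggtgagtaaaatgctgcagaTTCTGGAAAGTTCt
Unc45b, chr11:82911003-82911302, + strand: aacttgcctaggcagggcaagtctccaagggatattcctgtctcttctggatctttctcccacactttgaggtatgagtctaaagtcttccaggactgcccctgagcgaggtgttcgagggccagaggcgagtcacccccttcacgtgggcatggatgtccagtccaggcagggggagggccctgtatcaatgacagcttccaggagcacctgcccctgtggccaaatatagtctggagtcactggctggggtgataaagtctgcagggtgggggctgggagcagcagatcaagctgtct
Hspb3, chr13:113663627-113663926, - strand: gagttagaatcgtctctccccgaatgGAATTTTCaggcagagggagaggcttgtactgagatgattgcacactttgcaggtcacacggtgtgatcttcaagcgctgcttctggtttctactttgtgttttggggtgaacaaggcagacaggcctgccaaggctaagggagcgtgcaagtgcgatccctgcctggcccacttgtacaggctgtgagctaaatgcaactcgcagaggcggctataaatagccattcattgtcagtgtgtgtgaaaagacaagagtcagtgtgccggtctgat
The Hspe1 window overlapped 1 of the 2 Hspd1 windows by 285 bases on the opposite strand, so both genes share the run of 3 short elements that starts at position 162 of the window shown, counted from its 5′ end. Neither Unc45b nor any other muscle chaperone with a window held CAGCTG. Other forms of the E-box were not searched, so these windows may hold them.

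Signals are the authors' MAS5 intensities after a further scaling of both arrays to each other, and every ratio is the log2 signal of the array labelled double null minus that of wild type. Each gene is read from the probe set that was brightest on average, and counts as measured where the brighter array reached a signal of 658.5, the 60th percentile of probe sets. Signals under 286.9, the 40th percentile, were set to that floor. Neither targeted gene set the arrays apart: Myod1 read 1938 in wild type and 1663 on the other array, and Myf5, below the measured level, read 517 and 531. All 12 skeletal muscle markers were lower on the array labelled double null, with summed signals of 173331 and 89990.4, and all but Chrna1 stayed above the floor there. Of the markers of other cells, all 10 neuronal genes were higher (sums of 57815 and 126392), and all 8 measured genes of stratified epithelium were lower (sums over all 9 listed, Ivl under the floor included, of 113938 and 58142). The 6 smooth muscle genes were mixed, with sums of 33157 and 29218. The 3 measured ones were lower, while Myh11 (221 and 484.5) and Cnn1 (288 and 399), below the measured level, were higher. Of the 3, Actg2 (761 and 418.5) was measured through wild type alone. Of 7 genes listed as heart markers Myl4 alone was measured, at 6474 and 4564 (ratio -0.50). Which cells the Myl4 signal came from was not tested. Tnni3 (395 and 139.7) and Nkx2-5 (385.5 and 438) were below the measured level, and Myh6, Myl7, Nppa and Nppb were under the floor on both arrays. In bulk tissue, fewer cells of a type and less RNA per cell cannot be told apart.

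Of the 76 member genes 63 (82.9%) were measured, against 61.8% of all 18193 genes. The median log2 ratio of the measured members was 0.17, that of all 11238 measured genes 0.07. Of the 63 members 39 (61.9%) were above 0 and 24 below, where 56.3% of all measured genes were above 0 and 43.7% below. Hspd1 was the only member at least 2-fold lower, where the share of all measured genes was 4.22%. No member was 2-fold higher, where that share was 3.51%. These background shares depend on the scaling. Of all genes past 2-fold, 54.6% were lower here, 65.0% on the authors' own scale, 74.2% when reference (housekeeping) genes were brought to a median ratio of 1, called reference-ratio scaling, and 81.6% when their median signals were made equal, called reference-signal scaling. Between probe sets that read 1 gene the pooled SD of the log2 ratio was 0.515 over all genes, and 8 members were lower and 12 higher by more than that (12.7% and 19.0%, against 13.6% and 16.0% of all genes).

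Muscle chaperones went apart from each other. The myosin chaperone Unc45b went from 1603 in wild type to 885, a log2 ratio of -0.86 or 1.81-fold lower on the array labelled double null. Hspb3, a small heat shock protein of heart and skeletal muscle, read 921 and 523, which is 1.76-fold lower. Hspb2, which binds the myotonic dystrophy kinase, read 1003 and 617, or 1.63-fold lower. These were the 3 muscle genes past 1.5-fold, where 11.7% of all measured genes were at least 1.5-fold lower. Each of these 3 has 1 probe set on the array, so none has a second reading, and Hspb3 and Hspb2 were measured only through the wild-type array.

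The other muscle chaperones did not share that difference. Cryab, alpha B-crystallin, a partner of desmin filaments, read 7349.8 and 8623 in the probe set that stands for it, a log2 ratio of 0.23, and 732 and 1165 in a dimmer one, a ratio of 0.67. Both measured Cryab probe sets were therefore higher on the array labelled double null. Hspb6, which is also found in smooth muscle, read 781.5 and 958 (ratio 0.29). Smyd1 read 1228 and 1146 (ratio -0.10) in its 1 measured probe set of 6, whose name marks possible cross-hybridisation. The other 5 Smyd1 probe sets stayed below the measured level, 3 of them under the floor on both arrays. Hspb7, of heart and skeletal muscle, was not measured, with 447 and 381 in the brightest of its 3 probe sets.

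**Figure D1:**
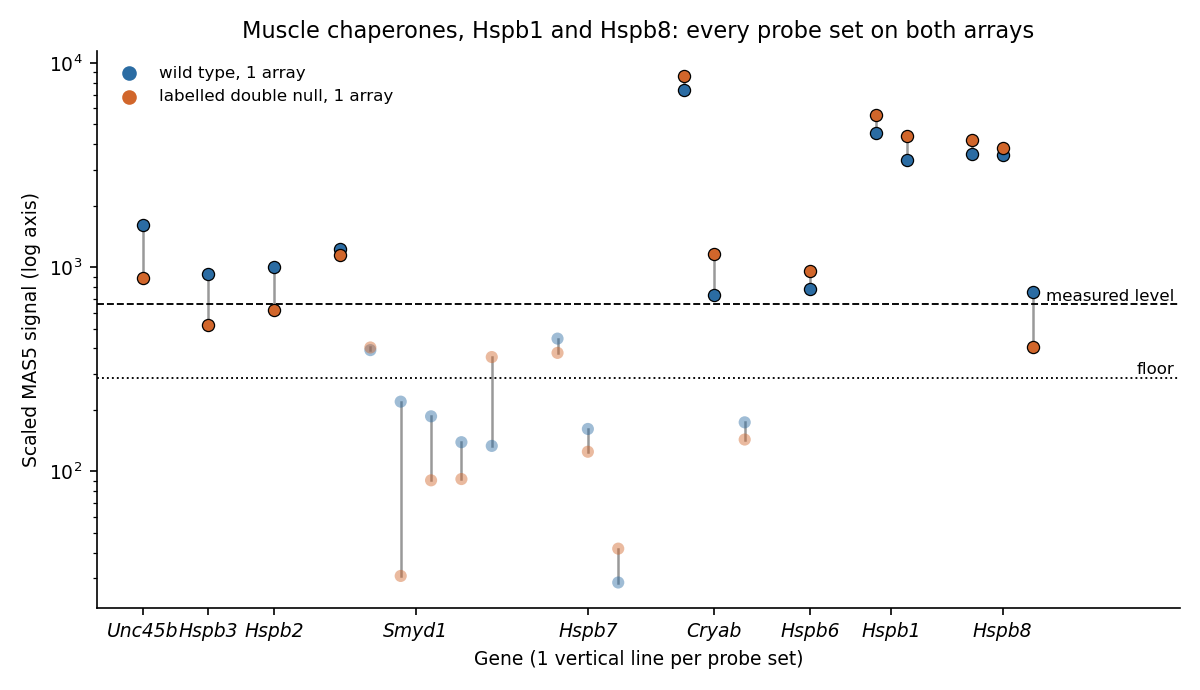
Scaled MAS5 signal on a log axis for every probe set of the 7 muscle chaperones and of Hspb1 and Hspb8, with wild type in blue, the array labelled double null in orange, and pale points for probe sets below the measured level of 658.5. Unc45b, Hspb3 and Hspb2 read lower on the array labelled double null, while both measured probe sets of Cryab and of Hspb1 read higher.

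Set against the general chaperones, the 6 measured muscle chaperones had a median log2 ratio of -0.40 and the 57 measured general ones a median of 0.18, a difference of -0.58. Of the muscle genes 4 were below 0 (66.7%, against 43.7% of all genes) and 2 above. Of the general genes 20 were below 0 and 37 above (64.9%, against 56.3% of all genes). The gap rests on which genes are called muscle chaperones: with Hspb1 and Hspb8, small heat shock proteins of muscle and many other tissues, added to the list, its median was 0.07 and the difference -0.10. It also rests on Hspb2 and Hspb3, which passed the filter on low signals through wild type alone, where they are high. Without them the muscle median over the remaining 4 genes was 0.066 and the difference -0.11. With no filter, over all 7 genes, the median was -0.23. No probability is attached to the gap. The median of the general chaperones lay 0.11 above that of all genes. It was -0.03 under reference-signal scaling, where the median of all genes was -0.15.

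The contractile genes that these chaperones serve were lower wherever measured. All 35 measured genes of a list of 37 sarcomere and muscle genes were below 0, with a median of -0.87 and a range of -1.69 to -0.10, and 12 (34.3%) were at least 2-fold lower, against 4.22% of all measured genes. Des and Mybph, among the 12, were measured through wild type alone, as were Actn3, Myl2 and Tcap among the rest. These genes passed the filter only where they are high. Unc45b, Hspb3 and Hspb2 lay within that range, Smyd1 lay level with its upper end, and Cryab and Hspb6 lay above every contractile gene measured. Myh8, the perinatal myosin heavy chain and a client class of Unc45b, went from 21159.6 to 10114. Tnnc2, fast troponin C, had the lowest ratio of the list with 31028 and 9596. Des, desmin, went from 1255 to 434, opposite in direction to its partner Cryab. Bag3, the co-chaperone that links Hsp70 to small heat shock proteins in muscle and is in this list too, read 2443 and 2030.0.

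Small heat shock proteins outside the muscle list were slightly higher. Hspb1 (Hsp25), an actin-binding member found in muscle and epithelium, read 4541 and 5572 in the probe set that stands for it and 3338 and 4394 in the other, ratios of 0.30 and 0.40. Hspb8, which works with Bag3 in clearing damaged filament proteins, had ratios of 0.23 and 0.12 in its brighter probe sets and -0.90 in a dim one (758 and 406). The signs of the Hspb8 probe sets thus disagree, and only the dim one is past 1.5-fold. Hspb9, known mainly from testis, was under the floor on both arrays. Markers of stratified epithelium, which also express Hspb1, were lower on the same array, and their part in the Hspb1 value was not tested.

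Hsp90 was represented by Hsp90aa1, the stress-inducible cytosolic form, and Hsp90b1, its counterpart in the endoplasmic reticulum. Hsp90ab1, whose symbol also matches the rule, had no single-gene probe set and was not analysed. Hsp90aa1 read 50495 and 71921, 1.42-fold higher in the second. Its other measured probe sets gave 13389 and 22014 (ratio 0.72), 17798 and 15035 (ratio -0.24), and a dim one 658.5 and 142.5, at least 2.30-fold lower. The Hsp90aa1 probe sets therefore span 1.92 log2 units, the widest range among the members with several readings. Hsp90b1 read 36481 and 31714 (ratio -0.20), with 0.21 in its other probe set.

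The Hsp70 and Hsp110 family lay close to the middle of all genes. Of 14 genes 12 were measured, with a median of 0.13 that turned to -0.01 and -0.08 under the scalings on reference genes. The family median lay 0.06 above that of all genes as reported and 0.07 above it under both of these scalings. The constitutive cytosolic Hspa8 read 117979.5 and 125303, a ratio of 0.09 that was below 0 under 3 of 4 other scalings. Its other measured probe sets had ratios of 0.29 and 0.12 as reported. The stress-inducible Hspa1a read 1809 and 2411 (ratio 0.41), and Hspa1b 5649.6 and 7067 (ratio 0.32), with 0.08 and -0.05 in its other probe sets. Hspa1a and Hspa1b encode nearly identical proteins, and their promoter windows match at 98.7% of bases, so their probe sets may read both. Hspa5, the main Hsp70 of the endoplasmic reticulum, read 59452 and 58441 (ratio -0.02), with -0.36 and -0.59 in its other probe sets.

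Hspa4, an exchange factor of the Hsp110 type, had the highest ratio of all members, with 10191 and 20279.6 or 1.99-fold higher. Its other measured probe sets read 9767 and 9992 (ratio 0.03) and 841 and 669 (ratio -0.33), so the higher reading was not shared. Hspa4l, a relative known from testis and from stress, had -0.25 in the probe set that stands for it and between 0.21 and 0.39 in the 4 others. Hspa9, the mitochondrial Hsp70, had -0.24, -0.07 and 0.42 in 3 probe sets. Hsph1, whose window holds a full heat shock element, had 0.16 and 0.01, and the first was -0.04 under reference-signal scaling and -0.0024 under quantile normalization. Hspa1l and Hspa12b were under the floor on both arrays.

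The mitochondrial chaperonin pair read in opposite directions. Hspd1 (Hsp60), which forms the folding chamber, went from 18120.2 to 8686, 2.09-fold lower, and Hspe1 (Hsp10), its lid, from 6689 to 11897, 1.78-fold higher. Hspd1 has 1 probe set, and the second of Hspe1 read 1909 and 1835 (ratio -0.06). The genes are neighbours on chromosome 1 and their windows overlap, as shown above. Hspd1 stayed at least 2-fold lower under all 14 other ways of scaling, flooring, filtering and choosing probe sets, with ratios from -1.27 to -1.05. Hspe1 was above 0 in 13 of these and -0.06 without the probe sets that can cross-hybridise.

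Of 7 measured mitochondrial members 4 were above 0 (57.1%, against 56.3% of all genes) and 3 below. Their median of 0.19 turned to -0.02 under reference-signal scaling, 0.12 and 0.13 above the median of all genes. Dnaja3, the main mitochondrial DnaJ protein, read 3137 and 4312 (ratio 0.46). Of 6 partners outside the member rule 4 were below 0, against 43.7% of all genes. Under quantile normalization 5 were, where 5404 of all 11237 measured genes were. Under both reference scalings 6 were, where 6418 of all 11260 (ratio) and 7115 of all 11282 (signal) were. Their median minus that of all genes was -0.25 as reported and -0.25 to -0.21 under the other scalings. Lonp1, a matrix protease, was 2.38-fold lower (10523 and 4416), and Clpp, the subunit of another matrix protease, had -0.75 and -0.19 in its probe sets. Grpel1, the exchange factor of Hspa9, had 0.11.

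Among DnaJ proteins of type A, which carry the full set of domains of the bacterial founder, 3 of 4 were above 0, with a median of 0.38. Dnaja1, a partner of Hspa8, read 27626 and 45371 (1.64-fold higher), with ratios of 0.84 and 0.11 in its other probe sets. Dnaja2 was nearly the same in its 4 probe sets, between 0.31 and 0.44. Dnaja4 had -0.16 and -0.28. In this family the measured probe sets of each gene lay on 1 side of 0.

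DnaJ proteins of type B had the highest median of the families, 0.53. Above 0 were 7 of 9 measured genes (77.8%, against 56.3% of all genes). Under reference-signal scaling the median was 0.32 and 5 were above 0, where 4167 of all 11282 measured genes were. The median lay 0.46 above that of all genes as reported and 0.47 above it under that scaling. Dnajb4, a heat-inducible member also found in muscle, read 6126 and 11865 (1.94-fold higher), but 791 and 875 in its other measured probe set (ratio 0.15). Dnajb14, of the reticulum membrane, read 1459 and 2784 (1.91-fold higher), with a ratio of 0.14 in the other. Dnajb1 (Hsp40), the classical heat-induced partner of Hsp70, read 34344 and 61743 (1.80-fold higher) and 849.5 and 1041 in the other (ratio 0.29). Dnajb9, induced by stress in the reticulum, went from 9201 to 15839.8 in its only probe set, 1.72-fold higher.

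These 4 were past 1.5-fold, where 13.2% of all measured genes were at least 1.5-fold higher. In Dnajb4, Dnajb14 and Dnajb1 the second reading had the same sign and a smaller size. Dnajb6, whose mutations cause a limb-girdle muscular dystrophy, had 0.17 and -0.34, and the first was -0.04 under reference-signal scaling. Dnajb5 had -0.0044 and 0.46, and Dnajb12 -0.24. Dnajb2, known from neurons, had 0.53 in 1 probe set.

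The large type C family, whose members share the J domain and little else, spread to both sides. Of 27 genes 22 were measured, 13 above 0 (59.1%, against 56.3% of all genes) and 9 below. Their median of 0.18 turned to -0.03 under reference-signal scaling, 0.11 and 0.12 above the median of all genes. Dnajc24, which takes part in making diphthamide, read 2309 and 1267 (1.82-fold lower), Dnajc7, which binds both Hsp70 and Hsp90, 18149 and 10419 (1.74-fold lower), and Dnajc2, of the ribosome-bound chaperone complex, 2651 and 1636 (1.62-fold lower). The second measured Dnajc2 probe set had -0.41. Dnajc8, linked to splicing, read 25769 and 17676 (ratio -0.54), with -0.28 in its other probe set.

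On the higher side, Dnajc17 read 4959 and 9423 (1.90-fold higher), but 815 and 442 in another probe set, 1.84-fold lower. Dnajc18 read 2013 and 3544 (1.76-fold higher) and 436 and 777 in a second probe set (1.78-fold higher). Dnajc6 (auxilin), which strips clathrin from vesicles in neurons, read 3311 and 5599 (1.69-fold higher). Dnajc5, the cysteine string protein of synaptic vesicles, read 13602 and 20041.5 (ratio 0.56), with 0.31 and -0.05 in its other measured probe sets. The probe sets of Dnajc14 disagreed, with -0.29, 0.30 and -1.49, the last from 1214 and 431.

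**Figure D2:**
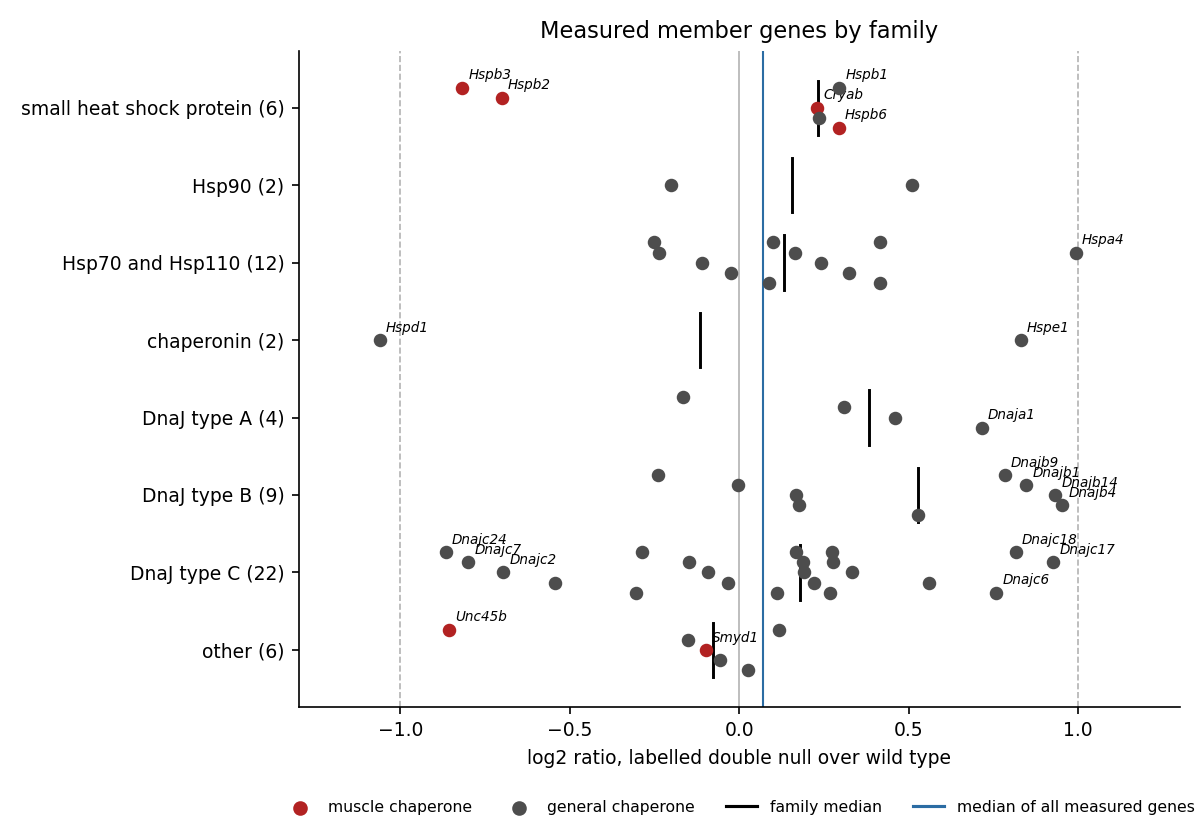
Log2 ratio of the array labelled double null over wild type for the 63 measured member genes, 1 point per gene, in rows by family, with muscle chaperones in red, family medians as black bars, the median of all measured genes (0.07) as a blue line and 2-fold as dashed lines. Hspd1 is the only point past 2-fold, and 7 of 9 type B genes lie above 0, against 56.3% of all measured genes. Under reference-signal scaling 5 of 9 do, where 4167 of all 11282 measured genes do.

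Grouped by what induces them, the 12 measured targets of heat shock factor 1 had a median of 0.31 against 0.07 for all genes. Of these, 10 (83.3%, against 56.3% of all genes) were above 0, and Hspd1 and Hspa4l below. Dnajb1, Hspe1 and Dnaja1 were past 1.5-fold higher (25.0%, against 13.2% of all genes), with -0.06 in the second Hspe1 probe set. Hspd1 was past 1.5-fold lower (8.33%, against 11.7%). Under other scalings 8 to 10 of the 12 were above 0 and the median ran from 0.10 to 0.23. It lay 0.24 above the median of all genes as reported and 0.22 to 0.25 above it under those scalings. Of the heat shock factors, Hsf2, a regulator active in development, read 349.6 and 821 in its 1 measured probe set, 2.35-fold higher, and was measured only through the array labelled double null. Hsbp1, which binds heat shock factor trimers, had -0.01 and 0.47. Hsf1 itself had no single-gene probe set.

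Members of the endoplasmic reticulum split evenly, 5 above 0 and 5 below among 10, where 56.3% of all genes were above 0. Their median of 0.07 turned to between -0.14 and -0.0040 under the other scalings. Minus the median of all genes it was 0.0004 as reported and between -0.06 and 0.01 under those scalings. The 2 past 1.5-fold were Dnajb14 and Dnajb9, both higher, where 13.2% of all genes were higher by that much. In 16 other chaperones and stress genes of the reticulum the median was -0.05. Minus that of all genes it was -0.12 as reported and between -0.19 and -0.11 under the other scalings. Xbp1, a transcription factor of the stress response there, had 0.53 in the probe set that stands for it and -0.04 to 0.30 in the 3 others. Sil1, the exchange factor of Hspa5, read 5273 and 2848 (1.85-fold lower), and Atf4, another stress factor, had -0.58 and -0.01. Serpinh1 (Hsp47), the collagen chaperone, had -0.07 (42185 and 40167) and -1.47 (30051 and 10849) in its probe sets.

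The 3 members listed for neurons were above 0, as were 56.3% of all genes. Dnajc6, Dnajc5 and Hspa12a had ratios of 0.76, 0.56 and 0.42, between 0.35 and 0.48 at the median under the other scalings. Their median lay 0.49 above that of all genes as reported and 0.41 to 0.50 above it under those scalings. The other measured Dnajc5 probe sets had 0.31 and -0.05. The 10 neuronal markers were higher on the same array, and their part in these values was not tested. None of the 8 members known mainly from testis was measured, and 5 of them were under the floor on both arrays.

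Partners of Hsp90 and Hsp70 outside the member rule were mostly lower. Of 20 measured partners 16 (80.0%, against 43.7% of all genes) were below 0 and 4 above, with a median of -0.25. At least 2-fold lower was 1, against 4.22% of all genes, and at least 1.5-fold lower were 6, against 11.7%. Fkbp8, an immunophilin of the mitochondrial surface, read 3446 and 1198 (2.88-fold lower). Cdc37, which brings kinases to Hsp90, read 6434 and 3273 (1.97-fold lower), and Fkbp4, of steroid receptor complexes, 5055 and 2859 (1.77-fold lower), with -0.62 in its other probe set. Ppp5c, an Hsp90-bound phosphatase, had -0.74, -1.34 and -0.50. Stip1 (Hop), which hands clients from Hsp70 to Hsp90, had -0.62 and Fkbp5 -0.63.

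Chordc1, which binds Hsp90, went the other way, from 25763 to 47048 (1.83-fold higher). The median of the partners was between -0.46 and -0.27 under the other scalings, where 16 to 19 of 20 were below 0. Minus the median of all genes it was -0.32 as reported and -0.31 to -0.29 under those scalings. Fkbp8, Cdc37, Stip1, Fkbp5 and Chordc1 each had 1 measured probe set. Cdc37l1, with 5, ranged from -0.75 to 1.01. The cytosolic chaperonin TRiC and prefoldin, which fold actin and tubulin, had a median of 0.04 over 14 measured genes. Pfdn4 had 0.77, Pfdn6 -0.59 and Vbp1 0.59. The median turned to between -0.17 and -0.04 under the other scalings. Minus the median of all genes it was -0.04 as reported and between -0.15 and -0.02 under those scalings.

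**Figure D3:**
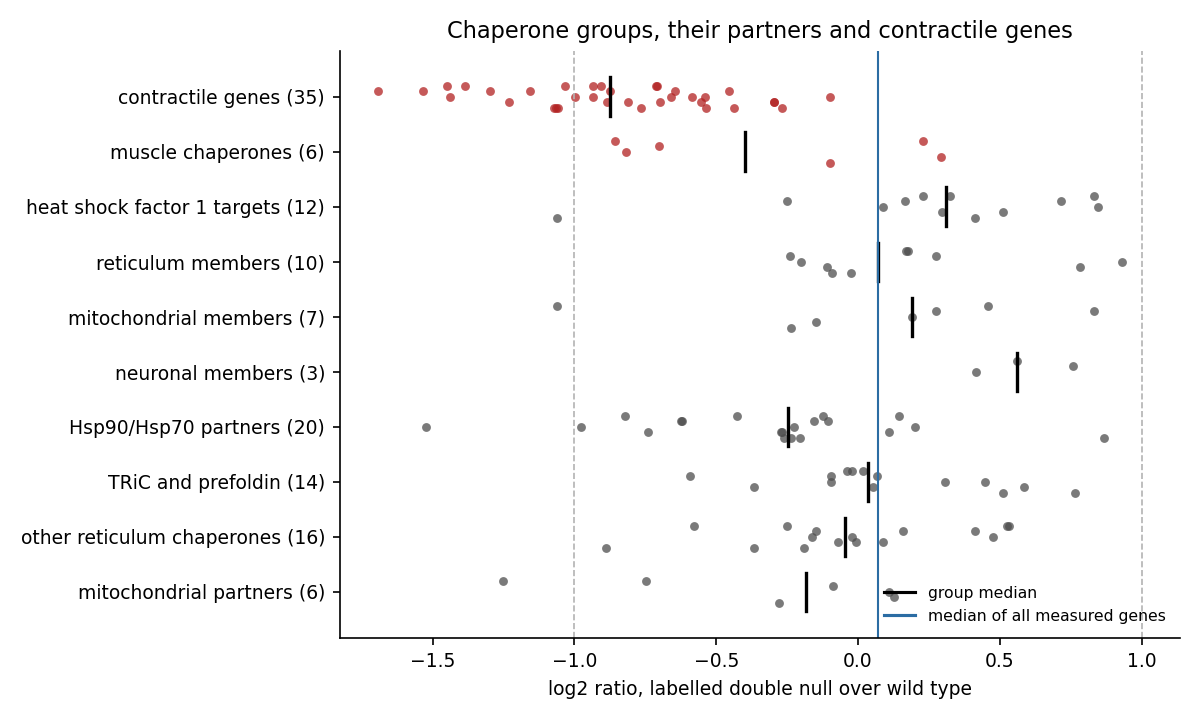
Log2 ratio of the array labelled double null over wild type for measured genes of 10 groups, 1 point per gene, with group medians as black bars, the median of all measured genes (0.07) as a blue line and 2-fold as dashed lines; some genes stand in more than 1 group. The contractile median is -0.87, the muscle chaperone median -0.40 and that of the Hsp90 and Hsp70 partners -0.25. Members listed as heat shock factor 1 targets have a median of 0.31.

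Readings of the same gene often disagreed. Of 37 member genes with at least 2 measured probe sets, 16 (43.2%) had all of them on 1 side of 0, against 50.7% of all 4030 such genes, 11 of the 16 above 0 and 5 below. The pooled SD within member genes was 0.46. Of the 17 members past 1.5-fold 9 had a further measured probe set. In 6 of the 9 all readings had the same sign, and Dnajc18 alone was past 1.5-fold in every reading. Hsp90aa1 and Dnajc17 had readings past 0.5 log2 units on both sides.

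Over all 121 measured member probe sets, 3 (2.48%) were past 2-fold, all of them lower. Of all measured single-gene probe sets 8.20% were past 2-fold, 4.52% lower and 3.68% higher. The 3 were the Hspd1 probe set and the lowest ones of Dnajc14 and Hsp90aa1. The Hsp90aa1 reading sat just at the measured level in wild type.

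**Figure D4:**
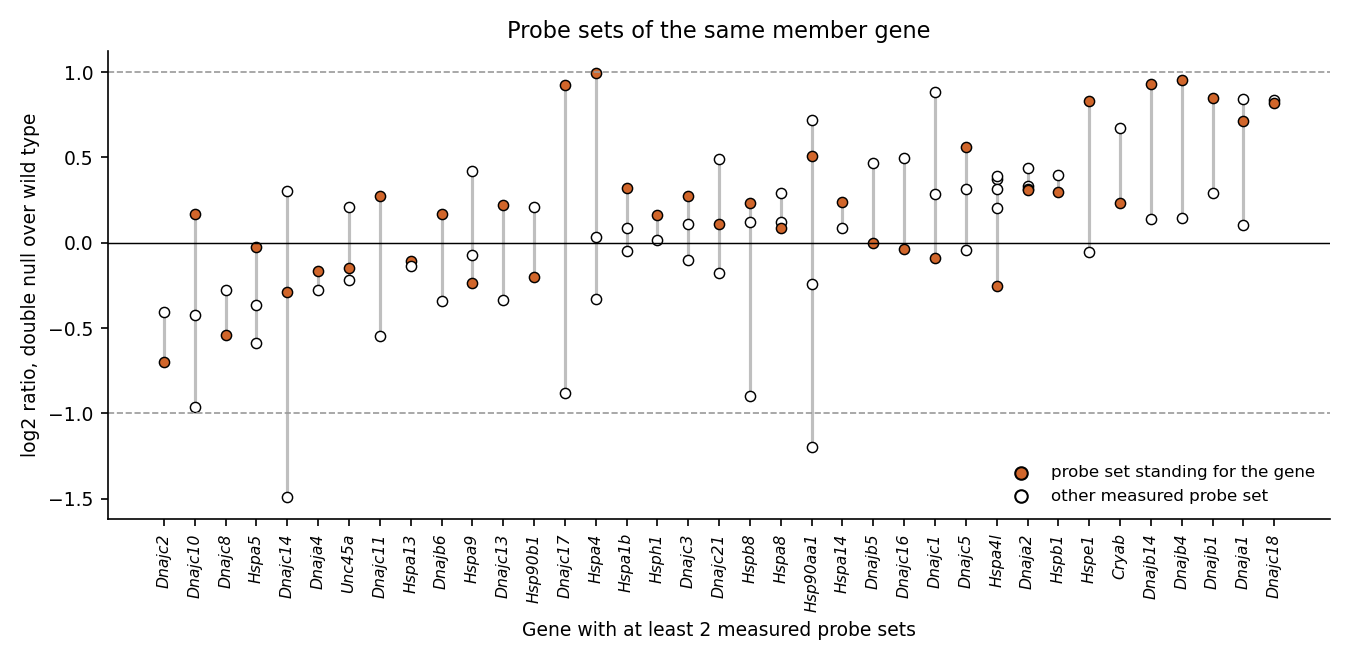
Log2 ratio for each measured probe set of the 37 member genes that have at least 2, ordered by their median, with the probe set that stands for the gene in orange, the others open, a grey line over their range and 2-fold as dashed lines. Hsp90aa1, Dnajc17 and Dnajc14 span the widest ranges, and the 2 measured probe sets of Dnajc18 coincide at 0.82 and 0.83.

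Chaperone genes that lie side by side did not always read alike. Apart from Hspd1 and Hspe1, Cryab and Hspb2 are neighbours on chromosome 9, with ratios of 0.23 and -0.70. Hspa1a and Hspa1b are neighbours on chromosome 17 with 0.41 and 0.32, beside Hspa1l, which was under the floor.

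The full heat shock element was found in the windows of 4 of the 62 member genes, Dnajb6, Hspd1, Hspe1 and Hsph1, or 6.45%, against 0.662% of all 27025 genes with windows. Their ratios were 0.17, -1.06, 0.83 and 0.16. Hspd1 and Hspe1 share the same run of elements in overlapping windows, so the same letters count for both genes. The short element was found in windows of 16 member genes (25.8%, against 17.0% of all genes). Counted for both genes were the shared run of Hspd1 and Hspe1 and the windows of Hspa1a and Hspa1b, which match at 98.7% of bases. The 14 measured genes with the element had a median ratio of 0.26, and 11 were above 0. The 37 measured genes without it had a median of 0.11, and 21 were above 0. Of all measured genes, with a median of 0.07, 56.3% were above 0. A link between the element and the ratios was not tested. The E-box CAGCTG, the only E-box form searched, was found for 12 member genes (19.4%, against 18.3%), none of them a muscle chaperone. The 11 measured genes with CAGCTG had a median of 0.16, and the 40 without it 0.17.

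At least 2-fold in either direction were 1 of 63 members (1.59%) against 7.72% of all measured genes, and 1 of 49 members (2.04%) against 6.06% when only genes at or above the 75th percentile of signal were taken. At least 1.5-fold lower were 11.1% of the members and 11.7% of all genes, and at least 1.5-fold higher 15.9% and 13.2%. In either direction 27.0% of the members and 25.0% of all genes were past 1.5-fold, and 30.6% and 22.2% among genes at or above the 75th percentile of signal. Of the 63 members, 12 changed sign under at least 1 of the 4 other scalings. These were Dnajb11, Dnajb5, Dnajb6, Dnajc10, Dnajc15, Dnajc21, Dnajc25, Hspa2, Hspa8, Hspb11, Hspbap1 and Hsph1, with ratios of at most 0.19 in size. The other 51 kept their sign under all 4, 28 above 0 and 23 below.

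**Figure D5:**
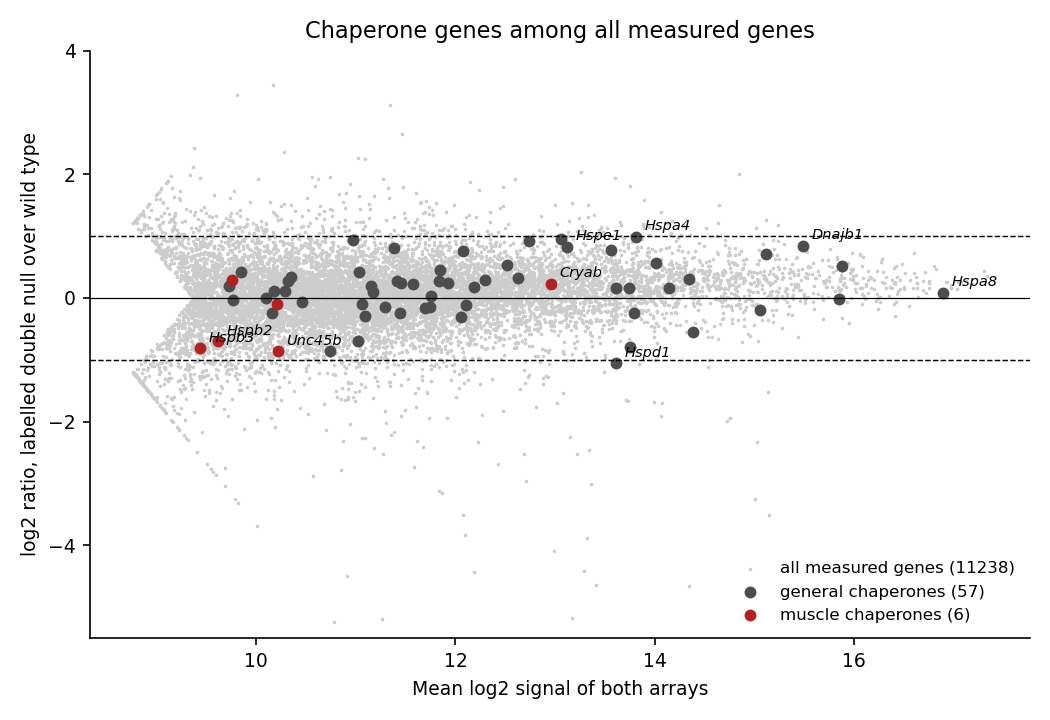
Log2 ratio of the array labelled double null over wild type against the mean log2 signal of both arrays for all 11238 measured genes in grey, 57 general chaperones in dark grey and 6 muscle chaperones in red, with 2-fold as dashed lines. The members lie between -1.06 and 0.99, and Hspd1 is the only one past a dashed line.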

How the data were processed

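Linear signal intensity values, 1 per probe set, were deposited by the authors, and the submitters' processing notes name MAS5 with no version. Both arrays had a trimmed mean of 1500.01, leaving out 2% at either end. Both were brought to 1 median over the probe sets that lay in the upper part (50th percentile and up) of each array, with factors of 0.974 (wild type) and 1.03 (double null). The floor at the 40th percentile came before log2. The number of arrays limits the precision, and with 1 per genotype no test was made. Genes came from the platform annotation (34945 probe sets with 1 gene, 932 with several, 9160 with none listed); all 76 member genes matched RefSeq. Another 3 probe sets naming several genes were left out, and 2 RefSeq genes that match the rule but have no single-gene probe set were not analysed here. Named were the muscle chaperones, Hspb1, Hspb8, members past 2-fold, and in each family up to 4 with the largest ratios, the furthest the other way and the highest signal, plus members with conflicting probe sets, up to 3 partners per list, Myf5 and Myod1; other names were chosen after their values were seen. Members and lists were chosen with earlier results of these data known. The steps were tested on simulated data. Alternatives were other scalings, floors, probe set rules, filters, fold rules and a wider muscle list. Python 3.11.15, numpy 2.4.6, pandas 2.3.3 and matplotlib 3.10.9 were used.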

Additional observations from a re-analysis of the deposited data

How the results depend on the processing

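The medians and counts of muscle and general chaperones were recomputed under 14 alternatives, a wider muscle list for the medians, 2 other fold rules for the counts, and, chosen after seeing the data, without the 2 members measured through wild type alone. A median counted as moved past 0.515, the SD between probe sets. The muscle median ran from -0.82 (3 genes, without cross-hybridising probe sets) to 0.066 (wider list, and also without Hspb2 and Hspb3), where it changed sign; the general median ran from -0.031 (scaling on the median signal of reference genes, where it changed sign) to 0.19, and their difference from -0.96 to -0.10. At least 2-fold lower were 1 general and 0 muscle genes. With scaling on the median signal of reference genes these were 3 and 2, where 7.36% of all genes were lower, and with scaling on their median ratio 2 general genes, where 6.12% were, against 4.22% as reported. With a 1.5-fold rule 4 general genes were lower, 10 higher and 3 muscle genes lower, and with a 3-fold rule 0 general genes were lower. The scalings on reference genes shifted the median of all genes by -0.22 (signal) and -0.15 (ratio), against which the general median stayed 0.12 and 0.11 higher. No paired analysis was possible because each genotype has 1 array. Readings near the floor of 286.9, such as Hspb7 and most of Smyd1, limit what can be said of those genes.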
